A study of Arabidopsis thaliana with 23 samples.

Results

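RNA polymerase IV (Pol IV) makes the short transcripts from which most 24-nt siRNAs of Arabidopsis are cut, and its largest subunit is encoded by NRPD1. The 24-nt small RNAs described here are those still counted when NRPD1 was mutated. The genome was divided into 100-bp windows, and a window on chromosomes 1 to 5 was taken when its 24-nt reads summed to at least 20 over the 2 nrpd1-3 libraries of batch A, with at least 5 in each. The rule took 622 windows out of the 548681 that had a 24-nt read in any of the 23 libraries. These 622 windows lay in 337 loci once windows no more than 200 bp apart were joined.

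All plants were Arabidopsis thaliana Col-0, and the RNA came from inflorescences. Batches are named here by the letter, A or B, in the sample titles. Batch A held nrpd1-3 (2 libraries), WT (3), zmp-2 (3) and zmp-2 with a pZMP::ZMP-YFP transgene driven by the promoter of ZMP itself (3, written ZMP-YFP zmp-2). Batch B held 3 libraries each of WT, of zmp-2, of the double mutant zmp-2 shh1-1 and of the double mutant zmp-2 nrpd1-3. zmp-2 is a T-DNA insertion in ZMP, whose product is found with Pol IV, nrpd1-3 and shh1-1 disrupt NRPD1 and SHH1, and SHH1 binds a histone mark and brings Pol IV to part of its targets. The plants' age is not given in the sources used here. The mutants without Pol IV, nrpd1-3 and zmp-2 nrpd1-3, are in different batches and the batch B mutant also lacked ZMP, so they were each compared only within their own batch.

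In plants, DICER-LIKE enzymes set the size of a small RNA. Pol IV transcripts are made double stranded by RDR2 and cut by DCL3 into 24-nt siRNAs, which guide DNA methylation. Precursors that fold back on themselves need neither Pol IV nor RDR2: miRNA precursors are cut mainly by DCL1 into 21-nt miRNAs, and long hairpins are cut by several of these enzymes into 21-, 22- and 24-nt RNAs side by side. Transcripts of TAS genes are copied by RDR6 after a miRNA has cut them and are diced mainly into 21-nt tasiRNAs.

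The 24-nt class made up 12.5 and 13.3% of all 21- to 24-nt reads in the nrpd1-3 libraries and 13.05 to 13.8% in those of zmp-2 nrpd1-3, against 62.6 to 62.9% in WT of batch A and 59.97 to 61.2% in WT of batch B. Libraries of the Pol IV mutants mostly held fewer reads of 21 to 24 nt. They had 0.532 to 1.80 M (M, mega), against 1.74 to 8.35 M in the other libraries. These counts include the 24-nt class, so they do not measure depth alone. Their 45S rRNA reads stood far higher: the summed 45S reads of zmp-2 nrpd1-3 were 1282% of those of WT (B), while the summed 21- to 24-nt reads were 15.0% and the 21-nt reads over miRNA genes 86.3%. In bulk tissue, fewer cells of a type and less RNA per cell cannot be told apart.

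Sequences are shown for the miRNAs and inverted repeats that the results turn on, read from the TAIR10.1 reference at the annotated or aligned positions. Mature miRNAs are given with the seed, bases 2 to 8, in capitals. miR163 is itself 24 nt long, miR319a, miR319b and miR319c share the seed UGGACUG, and miR160c-5p and miR168a-5p are the guide strands of their genes.
miR163 (chr1:24884359-24884382, + strand): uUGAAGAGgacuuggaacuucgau
miR319a (chr4:12353109-12353129, + strand): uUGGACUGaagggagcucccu
miR319b (chr5:16660469-16660489, - strand): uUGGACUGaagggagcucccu
miR319c (chr2:17029870-17029890, + strand): uUGGACUGaagggagcuccuu
miR160c-5p (chr5:19009158-19009178, - strand): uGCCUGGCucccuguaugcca
miR168a-5p (chr4:10578652-10578672, + strand): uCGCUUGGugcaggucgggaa
For 3 of the long inverted repeats, 30 bases of one arm are given with the best ungapped match on the reverse strand of the other arm, and capitals mark bases that differ between the arms. The longest repeat has 0 differences in this stretch, the repeat over AT3G44570 and AT3G44580 has 1 and the repeat at AT5G41765 has 4.
longest repeat, left arm (chr3:1964801-1964830, + strand): cttttttgtagacgttgacaattcagtagg
longest repeat, right arm (chr3:1969340-1969369, - strand): cttttttgtagacgttgacaattcagtagg
AT3G44570 repeat, left arm (chr3:16159301-16159330, + strand): ttgagatctgcgacatgtatGgatttacga
AT3G44580 repeat, right arm (chr3:16160578-16160607, - strand): ttgagatctgcgacatgtatAgatttacga
AT5G41765 repeat, left arm (chr5:16716201-16716230, + strand): accaaccggtTTaagaagAaggtttgtgAt
AT5G41765 repeat, right arm (chr5:16717020-16717049, - strand): accaaccggtCCaagaagGaggtttgtgGt

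Reads in these windows were spread very unevenly. The nrpd1-3 sum had a median of 52 and a maximum of 18905, at MIR163, and 201 windows reached 100 or more. The windows held 67.4% of the 24-nt reads that nrpd1-3 had on chromosomes 1 to 5, although 51334 windows had at least 1 such read, 44695 of them only 1 or 2. Just inside the threshold, 99 windows had a sum of 20 to 24, and just outside it 206 had a sum of 15 to 19, while 18 windows with a sum of at least 20 were left out for having under 5 reads in a library.

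Set against WT in raw reads, the windows fell into 2 kinds. In 144 windows the nrpd1-3 reads were 0.281 to 1.83% of the WT (A) reads, with a median of 0.621%, and all of these windows were abundant in WT, with at least 1095 reads over the 3 WT libraries. The other 478 windows kept from 2.00% upward, with a median of 154%, and only 11 of them lay between 2 and 10%. The 2% line between the low-remainder windows and the retained windows, as they are called here, was drawn after these values were seen, from raw sums of 2 nrpd1-3 and 3 WT libraries, and is a description. The abundance of the low-remainder windows in WT (A) follows from the rule and the line. At least 20 nrpd1-3 reads can make up 2% or less only where WT reads are many. Once the sums were scaled to all 21- to 24-nt reads, 28 windows in place of 144 lay at or below 2%.

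Batch B, which had no part in the choice or in the line, gave a similar but less complete separation in the raw reads of zmp-2 nrpd1-3. The low-remainder windows kept 0 to 0.792% of the WT (B) reads there, with a median of 0.184%, and all 144 lay at or below 2%. Of the retained windows, 460 lay above 2%, 17 at or below it and 1 had no WT (B) reads, with a median of 66.7%. Both kinds were still detected: 471 of 478 retained and 141 of 144 low-remainder windows had at least 1 24-nt read in zmp-2 nrpd1-3, and 299 of the 622 had 20 or more.

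**Figure D1:**
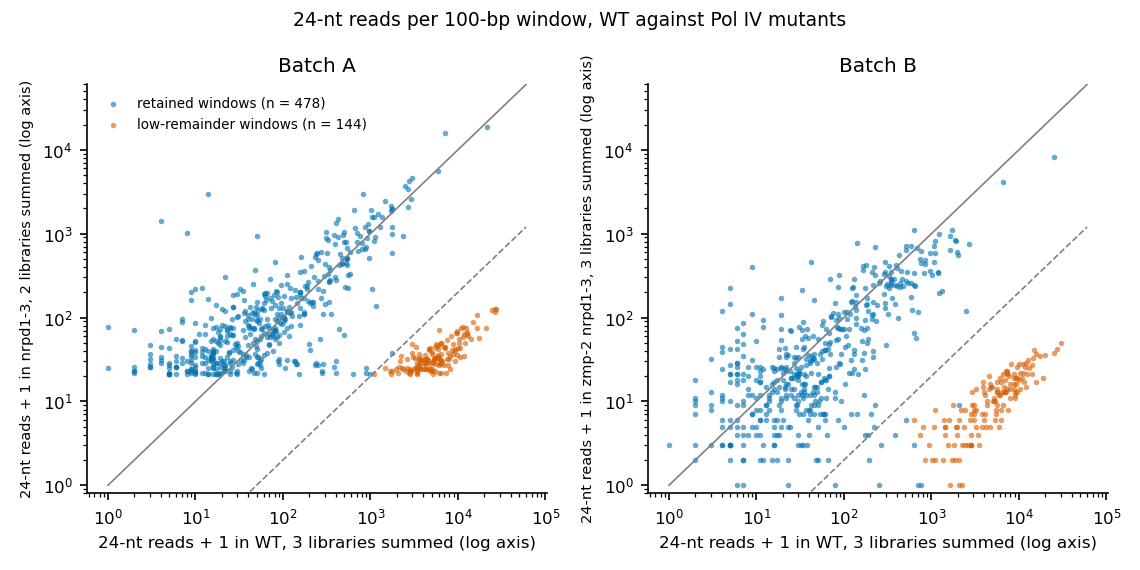
Each point is one of the 622 windows, with 24-nt reads (plus 1, log axes) summed over WT libraries on the x axis and over nrpd1-3 (batch A) or zmp-2 nrpd1-3 (batch B) libraries on the y axis. The solid line marks equal sums and the dashed line 2%. The 144 low-remainder windows lie below the dashed line in both batches, while most of the 478 retained windows scatter around the solid line. In batch B, 17 retained windows also kept 2% or less of the WT reads.

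The remainder in the low-remainder windows was close to that of windows the rule did not take. Over the 42001 windows with at least 20 24-nt reads in WT (A), at least 5 in each library, that were not among the 622, the pooled remainder was 0.641% in nrpd1-3 and 0.238% in zmp-2 nrpd1-3. Of 1175 windows with 1000 or more WT (A) reads, 173 were taken by the rule, 144 of them low-remainder windows, and those not taken had a median remainder of 0.473% and a maximum of 1.87%. The low-remainder windows therefore passed the threshold at remainders that overlapped those of other abundant windows. That overlap is partly set in advance, since the rule took windows by their nrpd1-3 reads and so capped the remainder of those not taken. It is a description.

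The reads themselves were divided the other way. The retained windows held 96.8% of the 24-nt reads of the 622 windows in nrpd1-3 and 97.3% in zmp-2 nrpd1-3, but 11.2% in WT (B), where the low-remainder windows held 88.8%. The repeat on chromosome 3 with the longest arms accounted for 28.5% of the nrpd1-3 reads, MIR163 for 10.9% and TAS1C, a tasiRNA gene, for 9.82%. In zmp-2 nrpd1-3 their portions were 39.6, 12.9 and 7.35%.

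Size classes separated the kinds of window as well. With the reads of all retained windows pooled, the 24-nt share of 21- to 24-nt reads was low in every genotype. It was 14.4% ± 0.637 in WT (A) (SD, n = 3), 14.5% ± 0.236 in zmp-2 (A) (n = 3), 13.7% ± 0.634 in ZMP-YFP zmp-2 (n = 3) and 11.1% ± 0.136 in nrpd1-3 (n = 2). In batch B its mean was 13.8% ± 0.714 (SD, n = 3) for WT, 14.6% ± 0.223 for zmp-2, 11.8% ± 0.596 for zmp-2 shh1-1 and 13.2% ± 0.551 for zmp-2 nrpd1-3, each over 3 libraries. The 21-nt class led the pooled reads throughout, with means from 54.2 to 60.5%. The zmp-2 nrpd1-3 libraries, at 12.5 to 13.5%, lay below those of zmp-2 (B), at 14.4 to 14.8%, and overlapped those of WT (B), at 13.2 to 14.6%. Single windows gave another picture. Of 447 retained windows with at least 20 reads in WT (A), 201 were led by 24-nt and 148 by 21-nt reads. The counts were 183 and 155 of 439 in WT (B), 196 and 165 of 478 in nrpd1-3, and 123 and 173 of 394 in zmp-2 nrpd1-3.

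In the low-remainder windows the 24-nt class led instead, with a mean share of 74.6% in WT (A), 72.4% in WT (B) and 67.4% in nrpd1-3. In zmp-2 nrpd1-3 the share was 27.9% ± 13.4 (SD, n = 3), and 1 intergenic window made the difference: without the window at chr4:3054801-3054900 the share over the other 143 windows was 69.3% ± 1.87. That window, chosen after its values were seen, had 899, 560 and 657 21-nt reads in the zmp-2 nrpd1-3 libraries, against 11, 7 and 7 in zmp-2 (B) and 155 and 61 in nrpd1-3. Its 24-nt reads were 2, 1 and 2 in zmp-2 nrpd1-3 and 422, 435 and 251 in zmp-2 (B), so 21- and 22-nt reads stood where 24-nt reads had been.

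Counted window by window, the leading class was mostly kept. Of the 453 windows with at least 20 reads of 21 to 24 nt in zmp-2 nrpd1-3, 174 were led by 21-nt reads, 82 by 22-nt, 16 by 23-nt and 181 by 24-nt reads. Among retained windows that could be classed in both WT (B) and zmp-2 nrpd1-3, 138 were led by 21 nt in both, 76 by 22 nt in both and 92 by 24 nt in both, whereas 26 passed from a 24-nt to a 21-nt lead and 8 from 21 to 24 nt. The 24-nt share itself was compared in 292 of the 622 windows that had at least 10 reads in each zmp-2 (B) and zmp-2 nrpd1-3 library: it was lower without overlap of the libraries in 58 and higher in 71, or 19.9 and 24.3%. Over all 600 such windows of the genome, these 292 included, the shares without overlap were 17.5 and 19%, and over the other 308 windows they were 15.3 and 14.0%. The 2 sets were unlike in level: the median 24-nt share was 20.1% in zmp-2 nrpd1-3 and 19.8% in zmp-2 (B) over the 292 windows, against 6.08 and 4.69% over the other 308. The 292 were also chosen by their 24-nt reads in a mutant without Pol IV. The counts are therefore a description, and the difference between the sets was not tested.

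The annotation of the windows followed the same line. Windows over miRNA genes made up 95 of the 622 (15.3%, against 0.323% of the windows that pass the same kind of threshold, 20 reads with 5 in each library, in WT (A)), windows over TAS genes 20 (3.22 against 0.0400%) and windows over snoRNA or snRNA genes 25 (4.02 against 0.0424%). All of these were retained windows. Reads matching rRNA, tRNA and snoRNA sequences had been removed by the authors before mapping, and the effect of that step on the numbers over such genes was not tested. Intergenic windows were 224 (36.0 against 62.5%), 100 of them low-remainder windows, and pseudogenes and transposon genes 27 (4.34 against 23.3%).

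Sequence repetition also differed between the kinds of window. The share of windows in which 90% or more of the 24-base words are found at a single place was 79.2% for the low-remainder windows, 44.6% for the retained windows and 22.5% for the retained windows in hairpin-like loci, and reads that match several places were placed by the authors according to the unique reads nearby. In 17 retained windows more than 50% of these words also occur in the organelle genomes.

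Most of the dense clusters among these loci were inverted repeats. Most loci, 243 of 337, were single windows, and only 10 loci held 5 windows or more, with 177 of the 622 windows (28.5%, 95% Clopper-Pearson interval 24.9 to 32.2, counting error only). WT (A) windows with 20 or more reads lay in dense loci more often, at 42.4%. An inverted repeat of at least 100 bp per arm at 80% identity or more was found in 7 of the 10 dense loci, and in 23 of all 337 loci (6.82%, interval 4.38 to 10.1), which held 192 of the 622 windows. Among 1578 WT (A) loci without any of the 622 windows, which were every 10th such locus, 9 had such a repeat (0.570%, interval 0.261 to 1.08). The 3 dense loci without a repeat were at AT2G01008 and MIR5642b, at an rRNA gene, AT3G41768, and at the pseudogene AT3G43832, which was made of low-remainder windows.

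The largest locus, chr3:1963701-1970400, held 64 windows over the long noncoding RNA genes AT3G01835 and AT3G01845 and their neighbours. Its arms are 3249 bp long at 98.9% identity with 237 bp between them. Its 24-nt reads were 27726 and 21655 in nrpd1-3 and 15830, 13821 and 13513 in WT (A), values that had a part in the choice of these windows. In batch B they were 12854, 10075 and 8432 in WT, 10708, 10037 and 5750 for zmp-2, 8575, 7541 and 8886 for zmp-2 nrpd1-3, and 15446, 12872 and 9324 in zmp-2 shh1-1. The 24-nt share lay between 15.1 and 22.8% in all 23 libraries, and 22-nt reads led along both arms.

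**Figure D2:**
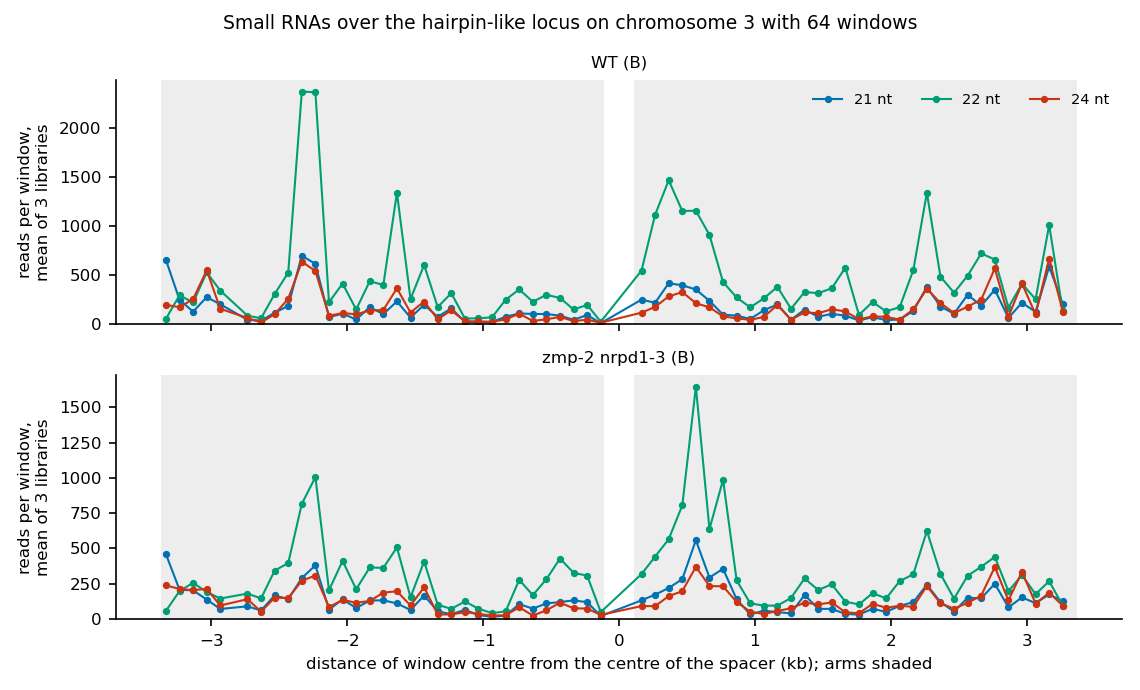
Lines show reads of 21, 22 and 24 nt per 100-bp window (mean of 3 libraries) along the chromosome 3 locus with 64 windows, by distance in kb from the centre of the spacer, in WT (B) and zmp-2 nrpd1-3 (B); the arms are shaded. The 22-nt line is highest over most of both arms in both genotypes, and the 24-nt line stays in the same places without Pol IV.

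Over retained windows in hairpin-like loci as a whole, 22-nt reads made up 43.0 to 48.4% and 24-nt reads 20.3 to 27.0% in the group means. Individual repeats departed from this. The repeat at AT5G41765 (chr5:16716101-16717100, arms of 686 bp at 81.9% identity, 10 windows) had a 24-nt share of 83.3 to 93.7% in all libraries, with 2880 and 2186 24-nt reads in nrpd1-3 and 253, 220 and 209 in zmp-2 nrpd1-3. The repeat over AT2G02835 and AT2G02840 (chr2:819401-823100, arms of 2231 bp at 91.1% identity, 26 windows) had shares of 36.6 to 50.3%. The hairpin-like loci named here thus covered the range from a 22-nt to a 24-nt lead.

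The repeat over AT3G44570 and AT3G44580 (chr3:16158401-16161500, arms of 1673 bp at 90.7% identity, 29 windows) had its lowest raw reads in zmp-2 shh1-1. Its 24-nt reads were 729, 604 and 326 there, against 2128, 1901 and 1203 in zmp-2 (B) and 1321, 1359 and 1188 in zmp-2 nrpd1-3, and the zmp-2 shh1-1 libraries lay below all others in raw reads. All sizes moved together, since its 21- to 24-nt reads were 2172, 1826 and 891 against 6349, 5644 and 3671 in zmp-2 (B), and the 24-nt share was 33.1 to 36.6% against 32.8 to 33.7%. Under 45S scaling each of its 29 windows was called lower in zmp-2 shh1-1 than in zmp-2, as given below. Each was also called lower in zmp-2 nrpd1-3 than in zmp-2 under that scaling, at log2 fold changes of -3.04 to -5.39. The fall was thus not particular to zmp-2 shh1-1.

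Among miRNA genes, 76 entries were covered by the 95 windows. In zmp-2 nrpd1-3, 50 of the 74 that could be classed were led by 21-nt reads and 18 by 24-nt reads, compared with 52 and 14 of 72 in WT (B). MIR163, a gene whose mature product is 24 nt long, had 10586 and 8319 24-nt reads in nrpd1-3, 2198, 2958 and 2973 in zmp-2 nrpd1-3 and 9689, 7223 and 8409 in WT (B). Its 24-nt share was 65.6 to 85.7% over all libraries, with the 24-nt class leading in each.

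The MIR168a locus, from which the miRNA that targets AGO1 is made, had 2052 and 1273 24-nt reads in nrpd1-3 against 336, 283 and 247 in WT (A). Its 24-nt share was 30.4 and 37.6% in nrpd1-3 and 15.3 to 21.4% in WT (A), but the locus was chosen for its 24-nt reads in nrpd1-3. In batch B the shares of zmp-2 nrpd1-3, at 17.03 to 20.2%, overlapped those of zmp-2, at 13.8 to 20.6%. MIR780, a gene with 2 annotated mature products, had many 24-nt reads at a small share, 2.20 and 2.36% in nrpd1-3 and 3.69 to 4.01% in WT (A).

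A group of miRNA genes had few 24-nt reads in WT and many in nrpd1-3, and some of them had larger raw sums of other sizes as well. In 31 windows the nrpd1-3 sum was more than 10 times the WT (A) sum or WT had none, and 19 of the 31 lay over miRNA genes. These windows were chosen by their nrpd1-3 values, so only batch B is open to comparison. The raw 24-nt sum was larger in zmp-2 nrpd1-3, the libraries with the fewest reads of 21 to 24 nt, than in zmp-2 in 16 of the 19, against 1.84% of all windows tested and 193 of the 622. It was larger in zmp-2 shh1-1, whose libraries were deeper than those of zmp-2, in 19 of 19, against 56.5% of all windows tested and 504 of the 622. Under 45S scaling, 16 of the 19 windows were tested in each comparison: in zmp-2 nrpd1-3 1 was called higher and 5 lower, and in zmp-2 shh1-1 4 were called higher and 0 lower. With 21-nt miRNA reads as library size 11 were higher and 1 lower in zmp-2 nrpd1-3, and 7 higher and 0 lower in zmp-2 shh1-1. The values given next are raw reads.

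MIR319 genes make miRNAs that target TCP transcription factor genes of leaf and petal growth. In the first MIR319a window (chr4:12353001-12353100), which lies before the mature miR319a shown above, the 24-nt reads were 1839 and 1148 in nrpd1-3 and 4, 7 and 2 in WT (A). In batch B they were 4, 3 and 1 in WT, 0, 2 and 3 for zmp-2, 148, 122 and 132 for zmp-2 nrpd1-3 and 51, 61 and 28 in zmp-2 shh1-1, with no overlap between the last 2 genotypes and the first 2. Its raw 21-nt sums were also larger, 2553 in nrpd1-3 against 459 in WT (A) and 516 in zmp-2 nrpd1-3 against 160 in zmp-2 (B). Scaled to 45S reads, however, its 21-nt reads were called lower in zmp-2 nrpd1-3 than in zmp-2 (log2 fold change -2.19, edgeR FDR 1.617e-08). Over both MIR319a windows the 23-nt sums were 19650 against 320 and 3952 against 144 in the same comparisons. At MIR319c the 23-nt sums were 2881 against 1358 in batch A but 164 against 1244 in batch B. The window over miR319c (chr2:17029801-17029900) had 153 and 154 reads in nrpd1-3 against 7, 5 and 9 in WT (A), and 14, 16 and 12 in zmp-2 nrpd1-3 against 2, 3 and 1 in zmp-2 (B), a difference that was not called once scaled to 45S reads (log2 fold change -1.08, edgeR FDR 0.1505) but was called higher with 21-nt miRNA reads as library size (2.36, FDR 0.0003735). At MIR319b, with the same mature sequence as MIR319a, the locus had 143 and 82 reads in nrpd1-3 against 11, 9 and 8 in WT (A), and 22, 45 and 26 in zmp-2 nrpd1-3 against 6, 7 and 4 in zmp-2 (B).

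MIR160 genes make miRNAs that target auxin response factor genes. The MIR160c window (chr5:19009101-19009200) had 648 and 362 24-nt reads in nrpd1-3 and 3, 1 and 3 in WT (A), and its 24-nt share was 59.7 and 59.1% in nrpd1-3 and 1.59 to 14.3% in WT (A). In batch B it had 1, 2 and 1 reads in WT, 9, 3 and 0 for zmp-2, 85, 62 and 75 for zmp-2 nrpd1-3 and 99, 101 and 35 in zmp-2 shh1-1. Its share was 16.8 to 28.3% in zmp-2 nrpd1-3 and 40.2 to 54.4% in zmp-2 shh1-1, against 0 to 29.0% in zmp-2 (B), where a share rests on few reads. The highest ratio among the 622 belonged to a MIR835 window, named after its values were seen, with 1429 reads in the nrpd1-3 sum and 3 in that of WT (A), and 145 in the zmp-2 nrpd1-3 sum against 16 in that of zmp-2 (B). Over the 2 windows of MIR835 the 23-nt sums were 1630 in nrpd1-3 against 7 in WT (A), and 558 in zmp-2 nrpd1-3 against 24 in zmp-2 (B).

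**Figure D3:**
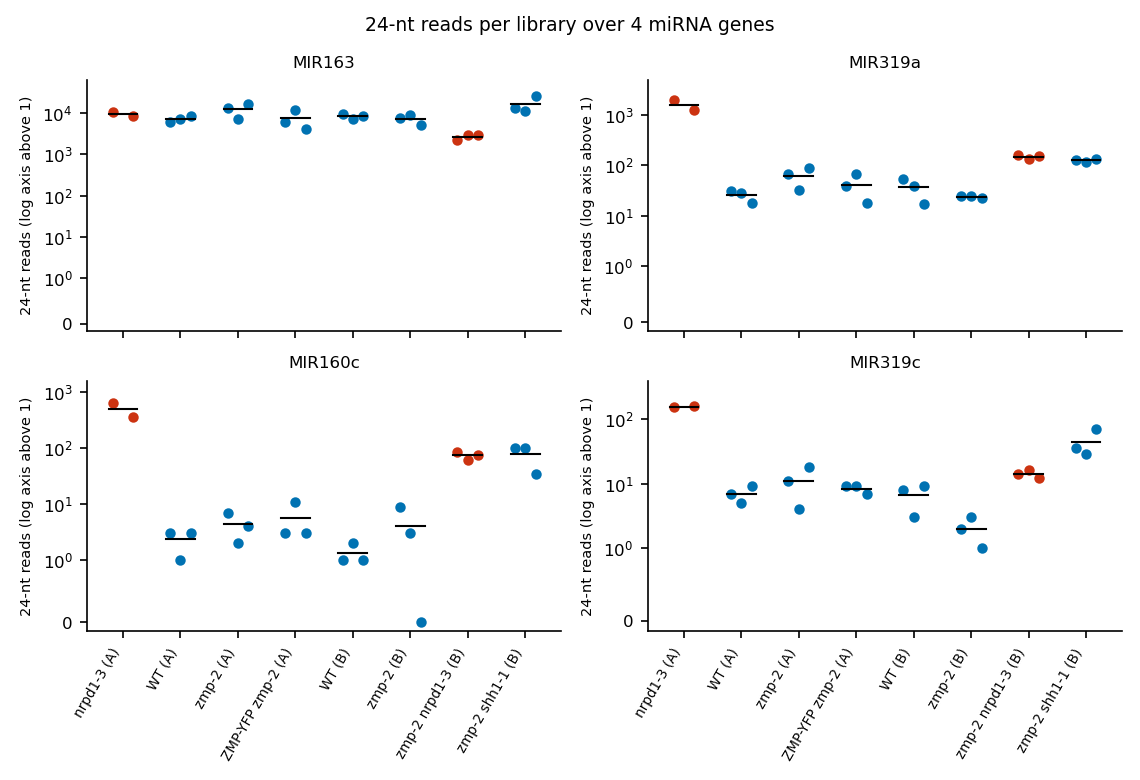
Points are 24-nt reads per library (log axis above 1) over the loci of MIR163, MIR319a, MIR160c and MIR319c in the 8 groups, red for genotypes without Pol IV, with black bars for the mean of 2 or 3 libraries. MIR163 is high in every library, whereas the raw reads of the other loci lie above WT and zmp-2 of the same batch in both genotypes without Pol IV as well as in zmp-2 shh1-1.

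TAS loci stayed led by 21-nt reads, and their level in zmp-2 nrpd1-3 depended on the scaling. Of the 20 TAS windows, 20 were called lower than in zmp-2 under 45S scaling (median log2 fold change -4.30, edgeR FDR of at most 0.05 and a fold of at least 2, the calls described below). With 21-nt reads over miRNA genes as library size 7 were lower and 0 higher, and with all 21- to 24-nt reads 0 were lower and 18 higher. In raw reads TAS1C had 9709 and 7311 24-nt reads in nrpd1-3 and 2609, 2559 and 3150 in WT (A), at shares of 15.4 and 17.8% against 9.01 to 13.6%. Its windows were chosen on these nrpd1-3 reads. In batch B TAS1C had 2136, 2201 and 1215 reads for zmp-2 against 1435, 1456 and 1751 for zmp-2 nrpd1-3, at shares that overlapped. TAS2 had lower shares in zmp-2 nrpd1-3 than in zmp-2 of batch B, at 6.20 to 6.74% against 9.42 to 10.7%. In zmp-2 nrpd1-3, 19 TAS windows were led by 21-nt reads and 1 by 22-nt reads. TAS1A, TAS1B and TAS3 had 24-nt shares between 2.51 and 12.2% in all libraries.

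Other loci with many reads were not over miRNA or TAS genes. The noncoding RNA locus AT1G08833 (chr1:24721101-24721500), one of the hairpin-like loci with arms of 239 bp, had 375, 369 and 404 24-nt reads in zmp-2 nrpd1-3 and 1191, 1086 and 581 in zmp-2 (B). Its 24-nt share was 49.7 to 55.6% in zmp-2 nrpd1-3, above the 35.7 to 38.9% of zmp-2 (B). An intergenic window at chr1:6926801-6926900 went the other way, at 25.4 to 28.5% against 38.3 to 49.1%, with 44, 34 and 39 24-nt reads against 548, 669 and 714. The intergenic locus at chr5:22322701-22322900 did the same with a smaller step, at 23.6 to 24.4% against 31.7 to 34.3%.

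The highest 24-nt shares in zmp-2 nrpd1-3 belonged to 24-nt loci of both kinds. AT3G43832, a transcribed pseudogene made of low-remainder windows, fell from 19282, 17207 and 10094 24-nt reads in zmp-2 (B) to 15, 68 and 32, and what remained had shares of 75 to 80%, against 80.9 to 84.0% in zmp-2. By contrast, the MIR5996 and UNE15 locus kept 29, 26 and 31 reads of 35, 31 and 21 at shares of 74.4 to 86.1%. AT3G07570 had only 8, 6 and 5 reads, and the intergenic window at chr3:10691401-10691500 had 3, 13 and 5 against 2185, 2056 and 1395. The single windows with the lowest shares in zmp-2 nrpd1-3, among those with at least 20 reads, lay at MIR159c, with 1 24-nt read of 1301 (0.0769%), MIR319a, with 44 of 53872 (0.0817%), and MIR319b, with 8 of 9761 (0.0820%), hardly below MIR173, with 2 of 2440 (0.0820%). Over both of their windows the MIR319a and MIR319b loci had 0.665 to 0.864% and 0.651 to 1.13%.

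zmp-2 nrpd1-3 was tested against zmp-2 in batch B with edgeR's quasi-likelihood test over 57939 windows, called at a Benjamini-Hochberg adjusted p (FDR) of at most 0.05 and a fold of at least 2. With library size set to 45S rRNA reads, as the study scaled its data, 560 of the 598 windows tested among the 622 were lower and 1 was higher, against 98.8% of all windows lower and 0.0242% higher. The median log2 fold change was -4.20 over the retained windows and -12.19 over the low-remainder windows, against -8.68 over all windows tested. The scaling set the level: with 21-nt reads over miRNA genes as library size, 310 were lower and 51 higher, against 97.7 and 1.11% of all windows, and with all 21- to 24-nt reads 168 were lower and 305 higher, against 65.5 and 2.13%.

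The low-remainder windows were lower in 144 of 144 under each of these scalings, and the retained windows had medians of -4.20, -0.69 and 1.86 in the same order. Whether a retained window had more or fewer 24-nt reads in zmp-2 nrpd1-3 thus depended on what the libraries were made equal in. A change of library size moves all windows alike, so the gap between the 2 kinds is not tested by it. The first MIR319a window was the 1 window called higher under 45S scaling, with a log2 fold change of 2.39 (FDR 0.00106), and it was higher under every alternative run. MIR160c had 0.31 (FDR 0.618) under 45S scaling and 3.81 (FDR 1.809e-06) with 21-nt miRNA reads.

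**Figure D4:**
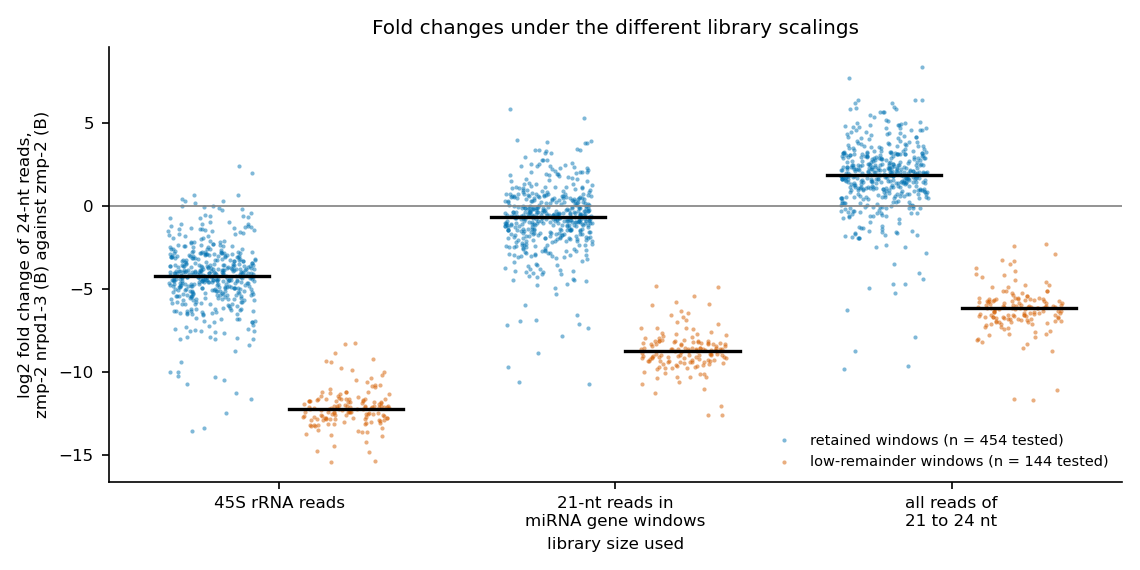
Points are log2 fold changes of 24-nt reads, zmp-2 nrpd1-3 (B) against zmp-2 (B), for the 454 retained and 144 low-remainder windows tested, under 3 choices of library size, with black bars for medians. The retained windows move from a median of -4.20 to 1.86 with the choice, and the low-remainder windows stay below 0 in each.

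The 21-nt reads of the same windows also depended on the scaling, but the windows called higher were not the same. Of 531 windows tested, 507 were lower and 2 higher under 45S scaling, against 85.4% of all 7649 windows lower and 0.549% higher, and the retained windows had a median log2 fold change of -3.99, close to their -4.20 for 24 nt. The 2 higher windows were the intergenic chromosome 4 window described above, with 2.49 (FDR 2.763e-08), and a window at the noncoding RNA gene AT3G00580, with 6.35 (FDR 0.01553). For 24 nt the intergenic window was called lower (-11.51) and the AT3G00580 window was not called (-0.53). The first MIR319a window, higher for 24 nt, was called lower for 21 nt. With all 21- to 24-nt reads as library size, 142 were lower and 291 higher, against 37.9 and 28% of all windows.

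The zmp-2 mutation with Pol IV in place changed few of the retained windows. In batch A 46 of 611 windows tested were lower than in WT and 4 higher, against 6.05 and 2.48% of all windows tested, and in batch B 34 of 584 were lower and 2 higher, against 6.12 and 1.82%. Retained windows accounted for 6 of the 46 and 5 of the 34, and low-remainder windows for 40 and 29. The same 28 windows were lower in both batches, and 2 were higher in both. With all 21- to 24-nt reads as library size the counts were 24 lower and 17 higher in batch A and 24 and 14 in batch B, against 4.84 and 4.55% of all windows in A and 5.12 and 3.49% in B. With 21-nt miRNA reads they were 40 and 7 in A, against 5.92 and 2.81%, and 22 and 17 in B, against 4.77 and 3.76%. The lower count of batch B fell to 22 without WT replicate 2 or without zmp-2 replicate 2, and the higher count of batch A rose to 8 without WT replicate 1 or zmp-2 replicate 2.

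The windows with the smallest FDR were low-remainder windows, which also had the more reads in WT. The effect of abundance on this ranking was not tested. At chr3:5453401-5453500, which is intergenic, 24-nt reads were 239, 137 and 426 in zmp-2 (A) against 2871, 2070 and 2021 in WT, and 1758, 2885 and 1033 in ZMP-YFP zmp-2. Its log2 fold change was -4.00 in batch A (FDR 2.375e-09) and -3.86 in batch B (FDR 2.798e-08). A window in the pseudogene AT3G26605 had -3.06 and -3.66, and an intergenic window at chr2:6377401-6377500 had -3.41 and -3.66. All had 0 to 2 24-nt reads in each zmp-2 nrpd1-3 library.

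In the other direction, the intergenic window at chr1:12215201-12215300 had 16684, 9279 and 18136 24-nt reads in zmp-2 (A) against 1807, 2159 and 2034 in WT. The log2 fold change was 2.06 in batch A (FDR 8.669e-08) and 2.17 in batch B (FDR 0.000219). The ZMP-YFP zmp-2 libraries disagreed among themselves there, with 5201, 286 and 110 reads. It had 13, 14 and 11 reads in zmp-2 shh1-1 and 0, 6 and 0 in zmp-2 nrpd1-3. A window in AT5G23660, SWEET12, a sucrose transporter gene, had log2 fold changes of 1.18 and 1.30.

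Loss of SHH1 in the zmp-2 background lowered 124 of the 602 windows tested and raised 7, against 28.9% of all windows lower and 0.298% higher. Of the lower windows 35 were low-remainder windows and 89 retained, of which 29 were the windows of the AT3G44570 and AT3G44580 repeat and 12 lay in the longest repeat. Without that first repeat 95 were lower. With all 21- to 24-nt reads as library size 77 were lower and 63 higher, against 18.8 and 5.53% of all windows, and with 21-nt miRNA reads 115 and 13, against 28.1 and 0.579%. The strongest falls were in low-remainder windows, such as chr3:10008601-10008700, with 8, 17 and 9 reads against 4331, 3880 and 2211 in zmp-2 (log2 fold change -9.63, FDR 1.937e-19), and chr3:20660201-20660300, with -9.29. Falls of this size can be measured only in abundant windows. The median of 24-nt reads in WT (A) was 5358.5 for low-remainder and 51 for retained windows.

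All 7 windows that rose in zmp-2 shh1-1 lay over miRNA genes (4 windows rose without zmp-2 replicate 3 and 14 without zmp-2 shh1-1 replicate 3), and those with the smallest FDR were the 3 already described. The log2 fold change was 2.97 for MIR160c (FDR 0.0001396), 3.39 for the first MIR319a window (FDR 0.0001429) and 2.92 for MIR319c (FDR 0.0004353). The zmp-2 shh1-1 libraries were deeper on average than those of zmp-2, at 2.86 to 3.35 M reads of 21 to 24 nt against 1.74 to 2.98 M, and had 0.978 to 1.53 M 45S reads against 0.384 to 0.470 M.

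Against WT, nrpd1-3 itself gave 312 of the 622 windows lower and 57 higher under 45S scaling, against 98.7% of all windows lower and 0.0945% higher. With all 21- to 24-nt reads the counts were 156 and 438, against 66.4 and 1.35%, and with 21-nt miRNA reads 268 and 76, against 98.6 and 0.152%. The windows were chosen on these reads, and the values are a description only.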

How the data were processed

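Small RNAs of 21 to 24 nt were measured in Arabidopsis inflorescences in 23 libraries. The authors trimmed adapters, removed reads matching rRNA, tRNA or snoRNA with Bowtie 1.1.0, mapped the rest to TAIR10 with ShortStack without mismatches, and deposited counts per 100-bp window and size class. The deposited RPM (reads per M mapped) and RPMR, a score per 45S rRNA read, are the counts times 1 factor per library; the 45S reads were recovered from that factor, and tests used the counts. A window missing from a file was given a count of 0. The study's methods describe 3 libraries per genotype; 2 of nrpd1-3 were used here. The labels call the replicates biological.

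Members and lists were chosen with earlier results of these data known. Comparisons used edgeR 4.0.16 (R 4.3.3) quasi-likelihood tests on windows with at least 10 counts in the fit, with 45S reads as library size, and were called at a Benjamini-Hochberg adjusted p of at most 0.05 and a fold of at least 2. Alternatives were other library sizes, TMM, DESeq2 1.42.0, no count filter, a replicate block and leaving out each replicate. The 45S fit was tested on simulated data modelled on WT and zmp-2 of batch B, with few windows changed. That setting does not cover zmp-2 nrpd1-3 against zmp-2, where most windows were called and 45S reads differed widely. Inverted repeats were searched with blastn 2.17.0 in each locus with 500 bp on either side. Named loci were those with the most 24-nt reads in nrpd1-3, listed TAS and miRNA genes, the extremes of 24-nt share in zmp-2 nrpd1-3, the longest repeats and the called windows of smallest FDR. Depth was 0.532 to 8.35 M reads per library, and intervals cover counting error only. The authors' own comparisons were not used.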

Additional observations from a re-analysis of the deposited data

How the results depend on the processing

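The choice of library size had the widest effect. With 45S reads, zmp-2 nrpd1-3 had 560 windows lower and 1 higher than zmp-2; the counts were 168 and 305 with all 21- to 24-nt reads, 310 and 51 with 21-nt miRNA reads, 154 and 363 with TMM and 194 and 166 with DESeq2 size factors, and 2 were higher with no count filter. For 21 nt they were 142 and 291, 252 and 49, 238 and 60, and 228 and 38 in the same order, from 507 and 2. For zmp-2 shh1-1 against zmp-2, 124 lower became 77, 77 and 73 with all reads, TMM and DESeq2, and 7 higher became 63, 61 and 26, and 13 with miRNA reads. For zmp-2 against WT in batch A, 46 lower became 24 and 4 higher became 17 with all reads, and 7 were higher with miRNA reads. In batch B 34 lower became 22 with miRNA reads and with DESeq2, and 2 higher became 14, 17, 8 and 7 with all reads, miRNA reads, TMM and DESeq2. For nrpd1-3 against WT, 312 lower and 57 higher became 156 and 438 with all reads and 139 and 467 with TMM. The cause was not tested.

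Leaving out each replicate gave 529 to 553 lower and 1 to 2 higher for zmp-2 nrpd1-3, 474 to 501 and 1 to 2 for 21 nt, 90 to 156 and 4 to 14 for zmp-2 shh1-1, 33 to 48 and 3 to 8 for zmp-2 in batch A and 22 to 35 and 2 to 7 in batch B. With the replicate number as a block, 552 were lower and 1 higher for zmp-2 nrpd1-3, and 4 were higher for zmp-2 in batch B; it moved no other count by over 1.5 times. Same-numbered libraries did not deviate together in their window counts, which cannot show whether they were grown or processed as pairs. The named windows called in a comparison were called in the same direction under each alternative run. The MIR160c and MIR319c windows, not called in zmp-2 nrpd1-3 under 45S scaling, were called higher under each other scaling, which was tried after seeing the data. MIR160c, at 0.31, had log2 fold changes of 6.36, 3.81, 7.59 and 5.33 with all reads, miRNA reads, TMM and DESeq2, and -0.21 to 1.68 when each replicate was left out, with -0.21 without zmp-2 replicate 3. MIR319c, at -1.08, had 4.88, 2.36, 6.11 and 3.92 in the same order.

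The rule gave 360 windows at 40 reads with 10 in each library and 1188 at 10 with 3. The share of windows in dense loci was 22.7% when only adjacent windows were joined, and the share of hairpin-like loci 3.56% at 50 bp and 90% identity and 3.26% at 200 bp and 80%. The 24-nt share of all 622 windows in zmp-2 nrpd1-3, 13.4%, was 18.2% among 21- and 24-nt reads alone and 16.6% without the 10 windows with the most reads; that of the low-remainder windows, 27.9%, was 69.3% without 1 window. Windows led by 24 nt were 79 at 50 reads. Scaled to total reads, 28 windows lay at or below 2%. The depth of zmp-2 nrpd1-3 limits the low-remainder windows most, with a median of 10.5 reads over its 3 libraries.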
